A study of Homo sapiens with 48 samples.

Results

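The oxidative phosphorylation system of human cells is built from 2 genomes, and its transcripts were followed here in 48 RNA sequencing libraries of U2932, a human B-cell lymphoma line. The members are the 13 protein-coding genes of the mitochondrial genome and 90 nuclear protein-coding genes, 103 genes in all, taken by symbol (MT-ND, MT-CO, MT-ATP and MT-CYB; NDUFA, NDUFB, NDUFC, NDUFS, NDUFV, SDHA to SDHD, UQCR, COX4 to COX8 and ATP5) without the NDUFAF assembly factors and without pseudogenes. They were found among 60558 gene rows in the coculture experiment (all 103), 14009 rows in the knockout tumours (13 mitochondrial and 81 nuclear) and 34843 rows in the mutant tumours (13 and 86). In coculture, KLHL6-KO and WT cells were sampled at 0, 3, 8 and 12 h on OP9-DLL1, mouse stromal cells made to display DLL1, a ligand of NOTCH receptors. The first tumour experiment holds xenografts labelled KLHL6-KO, NOTCH2-KO, DKO (both genes) and WT, and the second holds xenografts of cells that express NOTCH2(S2156A), NOTCH2(R2400*), NOTCH2(Q2140*) or NOTCH2(WT). All tumours, controls included, grew in NSG mice, which lack lymphocytes, received CHOP (cyclophosphamide, doxorubicin, vincristine and prednisone) and were collected at 1 cm3. Each of the 16 groups has 3 libraries. All of them come from 1 cell line, and the sources used here do not give the number of clones behind each group. The titles call the 3 libraries of a group biological replicates without saying whether they came from separate cultures, clones or animals, and the p-values speak of the spread among them.

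Electrons from NADH enter at complex I and those from succinate at complex II, pass through complex III to complex IV, where oxygen is reduced, and the proton gradient that results drives complex V, the ATP synthase. The mitochondrial genome encodes core subunits of complexes I, III, IV and V, and the nuclear genome encodes the remaining subunits and all of complex II. Mitochondrial genes are copied as long polycistronic RNAs from both strands of a circular genome and are then cut apart. Of the 13 coding genes, MT-ND6 alone is read from the light strand promoter, and its mature RNA is known to lack the usual poly(A) tail. NRF1 and ETS family factors are known regulators of nuclear respiratory chain genes.

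The mitochondrial members are packed so closely that some share bases, and this arrangement is shown because neighbouring genes are read together in the results that follow. The 3′ end of MT-ATP8 and the 5′ end of MT-ATP6, both subunits of complex V, share 46 bases, and MT-ND4L and MT-ND4, both of complex I, share 7 bases. MT-ATP6 also ends on the base where MT-CO3 starts (chrM:9207), and that pair is not shown. In the lines below the shared bases are in capitals, with 18 bases on each side, from the GENCODE 29 transcripts of GRCh38, plus strand, at chrM:8509-8590 and chrM:10742-10784. How the authors' counting treated a read in shared bases is not given in the sources used here.
MT-ATP8 and MT-ATP6: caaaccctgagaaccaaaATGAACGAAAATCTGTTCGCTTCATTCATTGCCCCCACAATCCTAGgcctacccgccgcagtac
MT-ND4L and MT-ND4: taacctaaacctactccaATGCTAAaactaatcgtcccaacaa

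MT-ND6 differs from its neighbour MT-CYB, the cytochrome b of complex III, in strand and in base composition. The first 60 bases of each are shown 5′ to 3′ with G in capitals, at chrM:14614-14673 (minus strand) for MT-ND6 and chrM:14747-14806 (plus strand) for MT-CYB. There are 21 G in the stretch of MT-ND6 and 3 G in that of MT-CYB. Over the whole gene, G made up 35.6% of MT-ND6 and between 6.28% and 16.2% of the other 12 genes.
MT-ND6: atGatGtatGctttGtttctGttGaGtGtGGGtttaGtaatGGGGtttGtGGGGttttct
MT-CYB: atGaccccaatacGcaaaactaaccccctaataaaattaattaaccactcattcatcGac

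Levels are given as normalised counts, the reads of a gene divided by a size factor for the library. Changes are log2 ± SE from limma on log2(normalised count + 2), 3 libraries against 3, with Benjamini-Hochberg adjusted p over all genes tested, and a gene is called at an adjusted p under 0.05. Depth, in units of 1e6 reads per library, was 11.1 to 17.4 in coculture, 3.71 to 15.2 in the knockout tumours (lowest in a tumour labelled DKO) and 12.7 to 17.1 in the mutant tumours. KLHL6 itself stood at 1915 to 3060 normalised counts in KLHL6-KO coculture libraries, below the 4135 to 6123 of WT libraries, but it was higher in the tumours labelled KLHL6-KO than in WT tumours (6276 to 7045 against 3478 to 4856). In tumours labelled DKO, KLHL6 stood at 3554 to 5266, which overlaps WT, and NOTCH2 stood at 531 to 612, within the WT range of 420 to 909. NOTCH2 stood at 292 to 448 in tumours labelled NOTCH2-KO, and 1 WT tumour overlapped that range (-0.97 ± 0.21, adjusted p = 0.003). A deletion need not lower the RNA of its gene, and these tumours are named below as labelled. The 7 B-cell markers were all present, with summed levels of 37790 to 80770 in every library. The stroma markers (16 genes) summed to 37.3 to 97.6 normalised counts per library at 0 h of coculture and to 186 to 705 at 3 to 12 h. All 16 were above 0 in coculture, and the macrophage markers C1QA and C1QB and the endothelial markers CDH5, KDR and VWF were at 0 in every coculture library.

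All 13 mitochondrial members passed the filter on low values in each experiment, and 81 of the 90 nuclear members did in each. Among the 9 that did not are isoforms of other tissues: COX6A2, COX7A1 and COX7B2 were at 0 in all coculture libraries, and COX4I2 was above 0 in 2 of the 24. Per kilobase of exon, the 13 mitochondrial members were the 13 most abundant of the members in each experiment. In coculture, the mean level per kilobase was 199591 for MT-CO2, a core subunit of complex IV, and 18604 for MT-ND6, the lowest of the 13. The highest nuclear member was ATP5F1B, the catalytic beta subunit of complex V, at 5585 per kilobase, followed by NDUFS5 of complex I at 2608 and COX5A of complex IV at 2099. In the knockout tumours MT-ND6 ranked 10th of the 13 at 42459 per kilobase, above MT-ND5 at 36796. In the mutant tumours it was again the lowest of the 13, at 31725, just under MT-ND5 at 35049. The experiments were normalised separately, so only the order within each is read here.

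The balance between the genomes moved in coculture. The ratio of the summed mitochondrial to the summed nuclear members is free of library scaling, and is given as a description with no test. In KLHL6-KO cells the ratio was 8.11, 8.70 and 7.96 at 0 h, 8.75, 7.61 and 7.25 at 3 h, 12.998, 10.7 and 10.4 at 8 h and 18.3, 14.6 and 11.6 at 12 h. In WT cells it was 9.11, 9.44 and 7.91 at 0 h, 9.44, 10.1 and 8.29 at 3 h, 7.34, 11.4 and 10.3 at 8 h and 27.7, 9.24 and 14.7 at 12 h. In KLHL6-KO cells all libraries at 8 h and 12 h lay above all libraries at 0 h, with differences of 0.45 and 0.82 in mean log2 ratio (pooled SD 0.13 and 0.24). In WT cells the mean difference at 12 h was also 0.82, with a pooled SD of 0.57 and with 1 library at 12 h, replicate 2, inside the range at 0 h. Without replicate 1, the highest library, the WT difference at 12 h was 0.41. That library also had the highest stroma marker sum of the coculture, 705 normalised counts against 235 and 256 in the other WT libraries at 12 h. MALAT1, a nuclear-retained RNA, was also higher at 8 and 12 h in both genotypes: it stood at 17001, 17053 and 17226 at 8 h and at 17927, 16333 and 18207 at 12 h in KLHL6-KO cells, against 9331, 11363 and 10545 at 0 h. In WT cells MALAT1 stood at 11999, 20837 and 13469 at 8 h and at 20022, 14838 and 15467 at 12 h, against 7459, 7770 and 8940 at 0 h. The WT libraries with the highest ratio at 8 h and at 12 h had the most MALAT1 of their group. In KLHL6-KO cells replicate 3 had the most MALAT1 and the lowest ratio at both times. That order rests on small differences in MALAT1, 17001 to 17226 at 8 h and 18207 against 17927 in replicate 1 at 12 h. MALAT1 was already higher at 3 h in WT cells (0.54 ± 0.16, adjusted p = 0.01), where the ratios overlapped those at 0 h. NEAT1, the other such RNA listed, was called higher at 12 h in KLHL6-KO (0.31) and WT cells (0.36), lower at 3 h in both and lower at 8 h in WT cells. The part of stroma RNA and of nuclear-retained RNA in the ratio was not tested. Between genotypes the ratios overlapped at every time, with KLHL6-KO minus WT differences of -0.09, -0.24, 0.25 and -0.10 at 0, 3, 8 and 12 h.

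**Figure D1:**
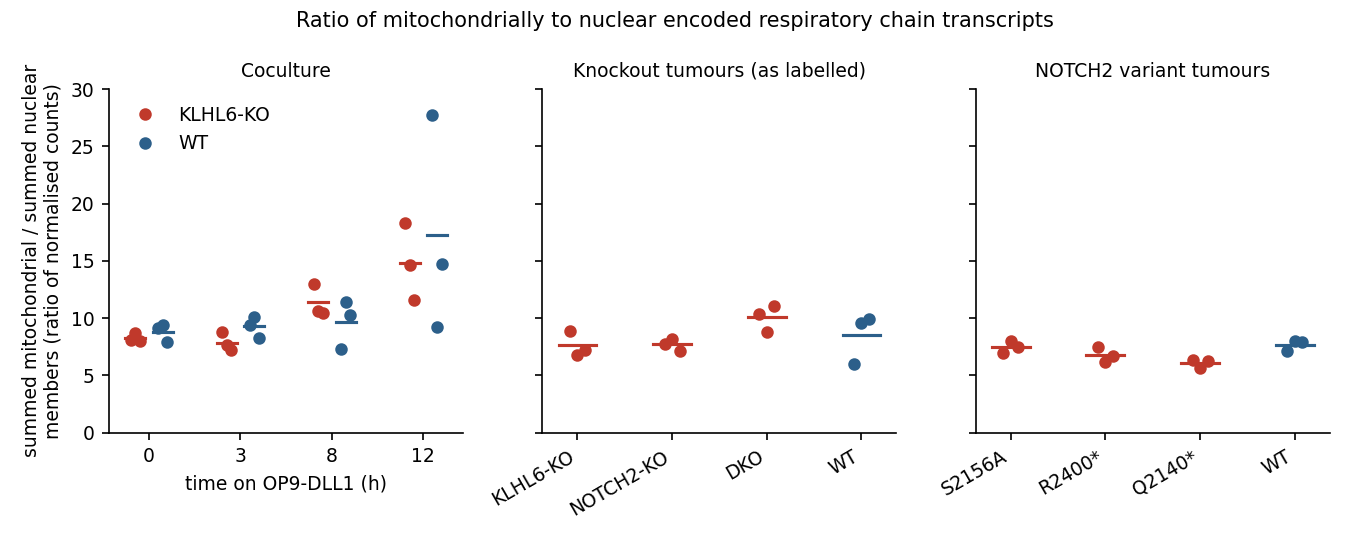
Ratio of summed mitochondrial to summed nuclear members (linear axis) in each library, with 1 point per library and a line at the group mean. Ratios in coculture run from 7.25 to 27.7, with the highest in WT cells at 12 h, and the 3 NOTCH2(Q2140*) tumours lie at 5.61 to 6.33, below the NOTCH2(WT) tumours at 7.12 to 8.02.

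MT-ND6 was the mitochondrial member with the largest change at every time. In KLHL6-KO cells MT-ND6 stood at 14796, 10943 and 12289 normalised counts at 3 h, against 3472, 4641 and 4708 at 0 h. The change was 1.57 ± 0.28 at 3 h (adjusted p = 0.00026), 1.59 ± 0.28 at 8 h (0.00026) and 1.48 ± 0.28 at 12 h (0.00045). In WT cells it stood at 11946, 13674 and 11450 normalised counts at 3 h, against 2315, 2751 and 3357 at 0 h. There the change was 2.15 ± 0.28 at 3 h (adjusted p = 4.8e-06), 1.80 ± 0.28 at 8 h (3.6e-05) and 1.91 ± 0.28 at 12 h (2.2e-05). In both genotypes no library at 3, 8 or 12 h overlapped those at 0 h, and all 6 calls held under every alternative processing. MT-ND6 did not pass the test between genotypes at 0 h (0.61 ± 0.28, adjusted p = 0.13; 0.0072 with these 2 groups alone), nor did the genotype-by-time term (adjusted p = 0.69).

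The rise of MT-ND6 was larger than that of the other mitochondrial members, which share its library and its scaling. Relative to the sum of the other 12, MT-ND6 in KLHL6-KO cells was 0.35%, 0.43% and 0.47% at 0 h, 1.43%, 1.19% and 1.38% at 3 h, 0.81%, 1.01% and 1.11% at 8 h, and 0.61%, 0.70% and 0.81% at 12 h. In WT cells it was 0.24%, 0.27% and 0.35% at 0 h, 1.13%, 1.23% and 1.22% at 3 h, 0.83%, 0.94% and 0.74% at 8 h, and 0.63%, 0.61% and 0.54% at 12 h. The share was therefore highest at 3 h in both genotypes and declined after it, with no overlap between 3 h and any other time. The share of the mitochondrial ribosomal RNAs MT-RNR1 and MT-RNR2 was also highest at 3 h, but at 12 h it was below the 0 h libraries in KLHL6-KO cells and overlapped them in WT cells. Their sum relative to the 13 members was 18.6% to 18.9% in KLHL6-KO cells at 0 h, 26.8% to 27.9% at 3 h and 14.8% to 18.1% at 12 h. In WT cells it was 14.5% to 14.96% at 0 h, 24.4% to 26.6% at 3 h and 11.8% to 16.8% at 12 h. MT-RNR1 rose by 0.79 ± 0.23 in KLHL6-KO cells at 3 h (adjusted p = 0.01) and by 1.40 ± 0.23 in WT cells (5.3e-05). The libraries were made from poly(A) RNA, and whether the counting used strand is not given in the sources used here, so light-strand MT-ND6 RNA and heavy-strand RNA across the same bases cannot be told apart.

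**Figure D2:**
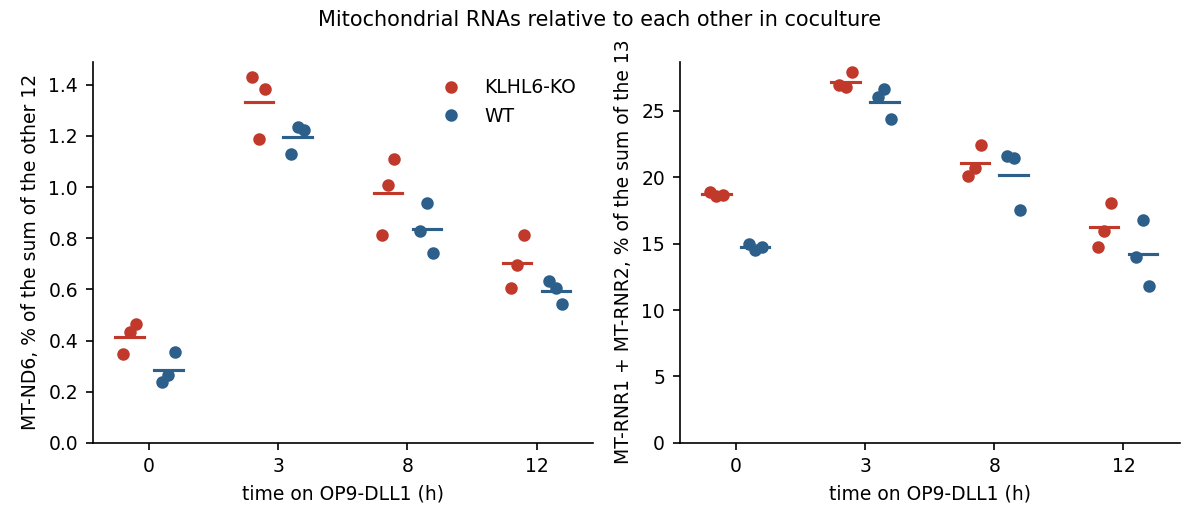
MT-ND6 as a percentage of the sum of the other 12 mitochondrial members (left) and MT-RNR1 plus MT-RNR2 as a percentage of the sum of the 13 (right), against time on OP9-DLL1. Each point is a library and each line a group mean; at 3 h MT-ND6 lies at 1.13% to 1.43% in the 6 libraries, against 0.24% to 0.47% at 0 h.

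In WT cells all 13 mitochondrial members were called at 12 h. In WT cells at 3 h MT-ND6 was the only one of the 13 called, while 54.8% of all genes were, but with the libraries of the compared groups alone 7 were called, 6 higher and 1 lower. At 8 h, 4 of the 13 were called, all higher, while 56.2% of all genes were. These were MT-ND6, MT-ATP8, MT-ATP6 and MT-ND2. Both complex V members led the 12: MT-ATP8 stood at 13874, 23273 and 14143 at 8 h, against 9222, 9479 and 9787 at 0 h (0.81 ± 0.24, adjusted p = 0.0092), and MT-ATP6 changed by 0.61 ± 0.25 (0.047). Without WT 8 h replicate 2, the library with the highest levels at 8 h, 1 member was called, and the count was 2 without any of 4 other libraries and 2 with scaling to the total without mitochondrially encoded genes. At 12 h all 13 were higher, while 53.0% of all genes were called, with a median of 0.83 against 0.00 over all genes. MT-CO1, the catalytic subunit of complex IV, stood at 539524, 196968 and 307425 at 12 h, against 184995, 195137 and 165493 at 0 h (0.82 ± 0.26, adjusted p = 0.013). MT-CYB was at 225801, 85325 and 131189, against 74221, 76628 and 71284 (0.88 ± 0.25, adjusted p = 0.0072). Replicate 1 is the highest of the 3 for both, and replicate 2 lies close to the 0 h range. Without replicate 1 the count fell to 6, and with the libraries of the compared groups alone it was 1.

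In KLHL6-KO cells, MT-ND6 was the 1 mitochondrial member called at 3 h, while 39.1% of all genes were, but with the libraries of the compared groups alone 6 were called, 2 higher and 4 lower. At 8 h MT-ND6 and MT-ND2 were called, both higher, while 37.8% of all genes were. MT-ND2, a core subunit of complex I, stood at 102385, 98989 and 94024 at 8 h, against 58723, 64653 and 63459 at 0 h (0.66 ± 0.24, adjusted p = 0.043). Without any 1 library of these groups the count at 8 h was 1, and with the libraries of the compared groups alone it was 11. At 12 h 10 of the 13 were called, all higher, while 40.5% of all genes were, and the median change was 0.73 against 0.00 over all genes. MT-CO1 stood at 370691, 299300 and 245664 at 12 h, against 170280, 177696 and 164921 at 0 h (0.82 ± 0.26, adjusted p = 0.017). MT-ND1, MT-CYB and MT-ND5 were not called (adjusted p = 0.068, 0.079 and 0.073), although none of their libraries overlapped those at 0 h. Without KLHL6-KO 12 h replicate 1 the count fell to 1, without replicate 2 it was 4, and without any 1 library at 0 h it was 4 or 5.

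MT-ND5, a proton-pumping subunit of complex I that lies next to MT-ND6 on the other strand, had the lowest change of the 13 at every time in both genotypes. In KLHL6-KO cells it was at 81069, 73970 and 70632 at 3 h, against 105798, 118174 and 108191 at 0 h (-0.56 ± 0.24, adjusted p = 0.082). In WT cells it was at 79579, 85834 and 74657 at 3 h, against 113852, 121104 and 99201 at 0 h (-0.47 ± 0.24, adjusted p = 0.11). The groups did not overlap in either genotype. Neither difference passed the test over all groups, and both did with the libraries of the compared groups alone (adjusted p = 1.9e-07 in KLHL6-KO and 0.00022 in WT cells).

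**Figure D3:**
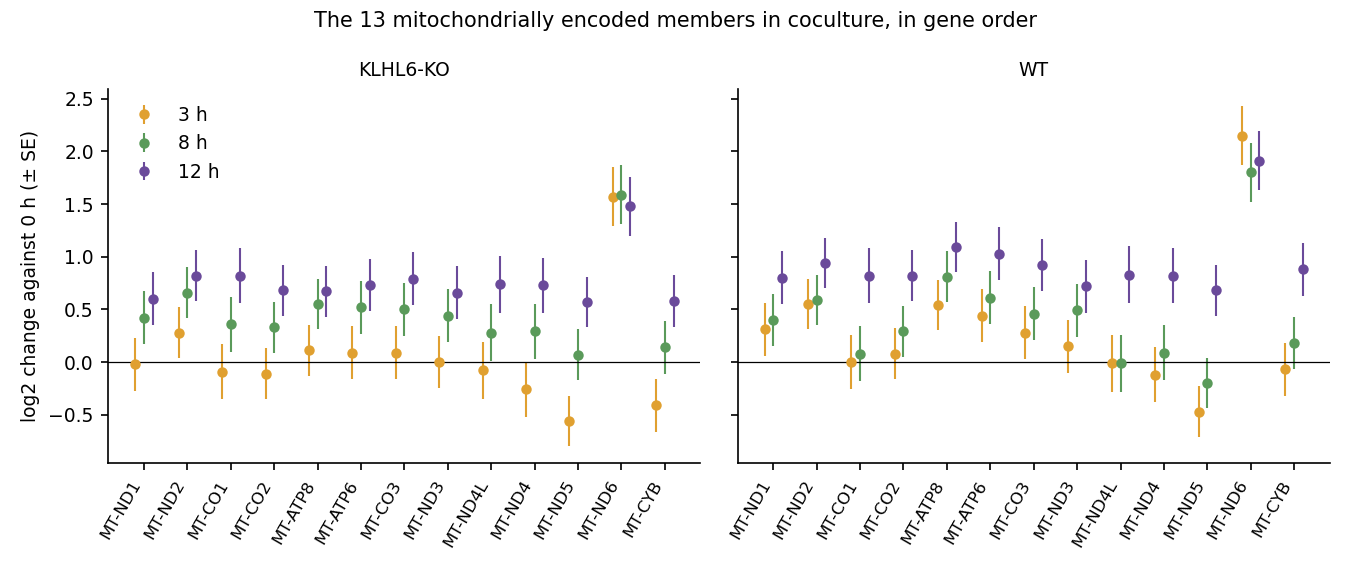
Log2 change against 0 h (± SE, 3 libraries against 3) of the 13 mitochondrially encoded members, in their order along the mitochondrial genome, at 3, 8 and 12 h in KLHL6-KO (left) and WT cells (right). MT-ND6 lies at 1.48 to 2.15 at all times, and the other members lie at -0.56 to 0.55 at 3 h and at 0.57 to 1.09 at 12 h.

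The genes outside the members whose levels followed the mean of the 13 most closely over the 24 coculture libraries were MTCO3P12, MTATP6P1, MTCO2P12, MTND1P23 and MTCO1P12 (Pearson r of 0.99, 0.99, 0.96, 0.95 and 0.94, given as a description). These are nuclear copies of mitochondrial genes, and their reads cannot be told apart with certainty from those of the members they resemble.

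In WT cells the share of nuclear members called higher was above that of all genes at 8 h and below it at 3 and 12 h. At 3 h 7 of the 81 were called higher and 4 lower, at 8 h 35 higher and 4 lower, and at 12 h 19 higher and 10 lower, beside 27.2% of all genes higher and 27.6% lower at 3 h, 28.0% and 28.2% at 8 h, and 27.1% and 25.9% at 12 h. The median change of the 81 was 0.03, 0.16 and 0.04, against -0.01, 0.00 and 0.00 over all genes. At 8 h 16 of 37 members of complex I were higher and 1 lower, 1 of 4 of complex II higher, 4 of 9 of complex III higher and 2 lower, 5 of 13 of complex IV higher and 1 lower, and 9 of 18 of complex V higher. Scaling to the total without mitochondrially encoded genes moves the median of all genes by -0.10 at 3 h, and the 3 h split is then 2 higher and 15 lower. Without 1 library the 3 h count ran from 6 (without WT 0 h replicate 2 or WT 3 h replicate 3) to 16.

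In complex V, ATP5MC1, which encodes the c subunit of the rotor ring, stood at 1187, 1303 and 1191 at 8 h and at 1245, 1415 and 1400 at 12 h, against 787, 877 and 1008 at 0 h in WT cells. It rose by 0.29 ± 0.07 at 3 h (adjusted p = 0.00079), 0.47 ± 0.07 at 8 h (8.6e-07) and 0.61 ± 0.07 at 12 h (7.2e-09). In complex I, NDUFA11, an accessory membrane subunit, stood at 635, 766 and 612 at 8 h, against 411, 458 and 498 (0.55 ± 0.09, adjusted p = 1.4e-06), and changed by 0.52 ± 0.09 at 12 h (5.3e-06). NDUFA6, another accessory subunit, rose by 0.27 ± 0.07 at 3 h (adjusted p = 0.001) and 0.46 ± 0.07 at 8 h (1e-06). In complex III, UQCRFS1, the Rieske iron-sulfur protein, stood at 1393, 1402 and 1288 at 8 h, against 933, 905 and 1078 at 0 h (0.49 ± 0.07, adjusted p = 6.6e-07). In complex II, SDHD, a membrane anchor, rose by 0.37 ± 0.07 at 8 h (adjusted p = 5.3e-05), while SDHA, the flavoprotein, fell by 0.28 at 3 h (174, 192 and 179 against 200, 238 and 224; adjusted p = 0.018). NDUFA7 was called higher at each time, at 10.5 to 31.4 normalised counts in WT cells, a level at which few reads carry the value.

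Members that fell in WT cells included both core proteins of complex III. UQCRC2 stood at 1936, 1890 and 2030 at 8 h and at 1864, 1943 and 1893 at 12 h, against 2442, 2420 and 2446 at 0 h, and fell by 0.32 at 8 h (adjusted p = 1.2e-06) and by 0.36 at 12 h (2e-07). UQCRC1 fell by 0.22 at 12 h (adjusted p = 0.0019). NDUFA4L2, a paralogue of the complex IV subunit NDUFA4 that is known as a hypoxia-induced gene, was low and fell most. It stood at 33.8, 31.4 and 36.2 normalised counts at 8 h in WT cells, against 67.3, 56.6 and 71.5 at 0 h (-0.90 ± 0.19, adjusted p = 0.00011). Subunits of the same complex thus moved in both directions: in complex III at 8 h, UQCRFS1 and UQCRQ rose while UQCRC1 and UQCRC2 fell.

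In KLHL6-KO cells few nuclear members were called higher, and the share called lower was near or below that of all genes. Of the 81, 0 were called higher and 3 lower at 3 h, 2 higher and 15 lower at 8 h, and 3 higher and 14 lower at 12 h, beside 19.5% of all genes higher and 19.6% lower at 3 h, 19.2% and 18.6% at 8 h, and 20.6% and 20.0% at 12 h. By limma 5 were higher at 3 h at an unadjusted p under 0.05, and edgeR called 1 higher. The median change was -0.01, -0.08 and -0.09. At 3 h SDHA fell by 0.45, the largest fall among the nuclear members (149, 187 and 175 against 236, 216 and 243; adjusted p = 0.00043). UQCRC1 stood at 1586, 1843 and 1799 at 8 h, against 2170, 2081 and 2225 at 0 h (-0.31 ± 0.06, adjusted p = 7.9e-05), and UQCRC2 fell by 0.27 at 8 h (3.7e-05) and 0.26 at 12 h (6.8e-05). In complex I, NDUFS4 stood at 226, 252 and 240 at 12 h, against 330, 313 and 326 (-0.43 ± 0.07, adjusted p = 1.7e-05), and NDUFB5 fell by 0.31 (0.00026). In complex V, ATP5F1A, the alpha subunit of the catalytic head, fell by 0.23 at 12 h (13929, 13514 and 12958 against 16311, 15614 and 15456; adjusted p = 0.00021). ATP5IF1, the inhibitor of the ATP synthase, fell by 0.28 (2024, 2183 and 2069 against 2409, 2521 and 2686; adjusted p = 0.0044). ATP5MC1 rose by 0.26 ± 0.07 (adjusted p = 0.0032) and NDUFA4L2 changed by -0.95 ± 0.19 (27.2, 19.9 and 31.9 against 53.2, 52.0 and 50.9; adjusted p = 0.0001). Without KLHL6-KO 0 h replicate 3 the counts were 1, 9 and 11 at 3, 8 and 12 h, and without KLHL6-KO 8 h replicate 1 the count at 8 h was 10. With the libraries of the compared groups alone 9 members were called at 3 h and 27 at 12 h.

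Before coculture, nuclear members stood higher in KLHL6-KO cells than in WT. At 0 h, 26 of the 81 were called higher and 0 lower, while 13.7% of all genes were higher and 12.5% lower. No nuclear member was lower at an unadjusted p under 0.05 in limma, and none was called lower by edgeR. The median difference was 0.14 against 0.00 over all genes. The 26 were 10 of 37 members of complex I, 1 of 4 of complex II, 4 of 9 of complex III, 2 of 13 of complex IV and 9 of 18 of complex V. ATP5MC1 stood at 1091, 1095 and 1175 in KLHL6-KO cells, against 787, 877 and 1008 in WT cells (0.34 ± 0.07, adjusted p = 0.00055). COX5B, a zinc-binding subunit of complex IV, was at 1014, 962 and 1064 against 745, 808 and 899 (0.31 ± 0.07, adjusted p = 0.0012). NDUFB9 of complex I was at 1478, 1443 and 1489 against 1119, 1183 and 1324 (0.29 ± 0.06, adjusted p = 0.00054), and UQCRQ of complex III was at 839, 804 and 840 against 658, 657 and 746 (0.27 ± 0.08, adjusted p = 0.0087). In each of these 4 the genotypes did not overlap. The count was 15 with scaling to the total without mitochondrially encoded genes. It was 43 without WT 0 h replicate 3, 11 without WT 0 h replicate 1, 10 without WT 0 h replicate 2, and 17 and 16 without KLHL6-KO 0 h replicates 2 and 3, with every call higher.

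Between genotypes later in coculture, the counts depended on the fit. At 3 h 3 nuclear members were higher in KLHL6-KO cells and 0 lower, while 7.82% of all genes were called (3.82% higher). The 3 belong to complex V: ATP5MC3, ATP5MF and ATP5F1B, the last at 13455, 13595 and 13595 against 11430, 11783 and 12286 in WT cells (0.20 ± 0.05, adjusted p = 0.0089). The count was 0 without WT 3 h replicate 1, and 1 if replicate 2 or 3 of KLHL6-KO at 3 h was left out. It was 17, all higher, with the libraries of these 2 groups alone, a fit that gave 16 at 0 h and 0 at 8 h. At 8 h only COX7A2 of complex IV was called, and it was lower (1124, 1218 and 1195 against 1422, 1376 and 1259; -0.20 ± 0.06, adjusted p = 0.038), while 4.34% of all genes were called (2.02% higher and 2.32% lower). That call was lost without any 1 of 4 libraries at 8 h (replicates 1 and 3 of KLHL6-KO, replicates 1 and 2 of WT), and 4 members were called without WT 8 h replicate 3. At 12 h no nuclear member was called by limma or edgeR, 4 passed an unadjusted p of 0.05, and 3.39% of all genes were called (1.40% higher and 2.00% lower). Of the mitochondrial members, none was called between genotypes at any time by limma or edgeR over all groups, with 1 of the 13 at an unadjusted p under 0.05 at 0 h and 0 at 3, 8 and 12 h. With the libraries of the 2 groups alone, 5 were called higher in KLHL6-KO cells at 0 h (MT-ND1, MT-ND2, MT-ND6, MT-ATP6 and MT-ATP8) and 0 at 3, 8 and 12 h. Over all groups the SE of MT-CO1 was 0.26, against 0.07 for COX5B.

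The test of genotype by time, over the 3 changes against 0 h at once, called 12 nuclear and 0 mitochondrial members, while 12.4% of all genes were called. None of the 13 mitochondrial members passed an unadjusted p of 0.05 in limma, and none was called by edgeR. The mean term (KLHL6-KO minus WT, change against 0 h) had a median of -0.10 over these 13 and -0.13 over the 81 nuclear members. Over all genes it was -0.01. The lowest mitochondrial mean term was that of MT-ND6, at -0.41. Mitochondrial members vary more between libraries than nuclear ones, so the counts do not show that the 2 genomes differ in this term. The share of nuclear members called is near that of all genes, and the share of negative terms among all genes called was not counted. All 12 nuclear members called had a negative mean term, that is, a change against 0 h that was less positive or more negative in KLHL6-KO cells. They were NDUFA6, NDUFA11, NDUFA12, NDUFAB1, NDUFB9 and NDUFS6 of complex I, UQCRFS1 and UQCRQ of complex III, COX5B of complex IV, and ATP5MC1, ATP5MC3 and ATP5MF of complex V. COX5B shows the pattern. In KLHL6-KO cells it stood at 1014, 962 and 1064 at 0 h and at 856, 962 and 926 at 8 h, and in WT cells it stood at 745, 808 and 899 at 0 h and at 986, 1125 and 949 at 8 h. The genotypes were apart at 0 h and overlapped at 8 h, with a mean term of -0.35 (adjusted p = 0.004). The term at 8 h was larger in size than that at 3 h for each of the 12, for COX5B -0.47 ± 0.10 against -0.18 ± 0.10. Every term contains the 0 h libraries, so it is not independent of the difference at 0 h given above. COX5B, NDUFB9 (-0.27, adjusted p = 0.0038), NDUFA6 (-0.31, 0.005) and ATP5MF (-0.22, 0.01) were called under every alternative. The count was 5 with scaling to the total without mitochondrially encoded genes, 4 without WT 8 h replicate 2 and 30 without WT 0 h replicate 3, and 5 to 7 without any 1 of 9 other libraries (of KLHL6-KO, replicates 2 and 3 at 0 h and at 3 h and replicate 1 at 8 h; of WT, replicates 1 and 2 at 0 h, replicate 1 at 3 h and replicate 3 at 12 h).

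**Figure D4:**
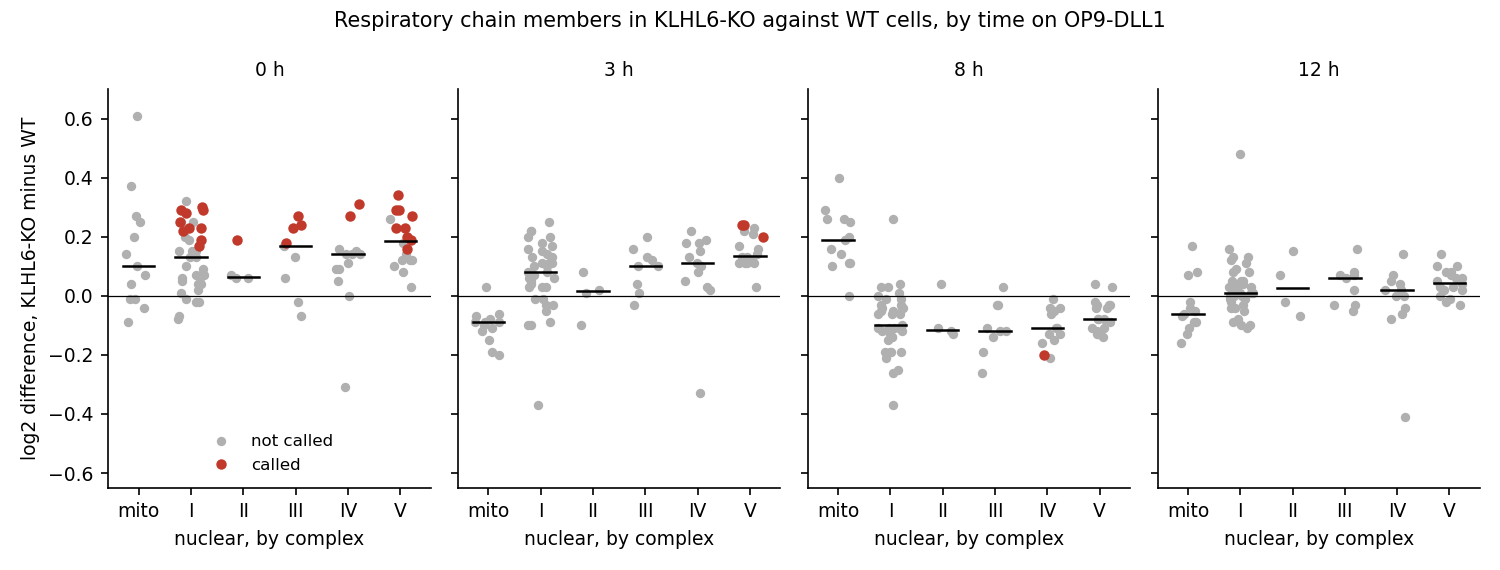
Log2 difference between KLHL6-KO and WT cells at each time for the 13 mitochondrial members (mito) and the 81 nuclear members by complex, with 1 point per gene, red where called, and a line at the median. At 0 h 26 nuclear members are called, all higher in KLHL6-KO cells, against 3, 1 and 0 at 3, 8 and 12 h, and no mitochondrial member is called in this fit over all groups.

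Promoters were found for 9 of these 12 genes, of which 3 (NDUFA6, NDUFS6 and COX5B) hold the core letters of NRF1, 2 (UQCRQ and COX5B) hold those of ETS factors and 5 hold neither. COX5B and NDUFS6 are shown as examples. The 250 bases before the RefSeq start were searched on both strands for GCGCATG, the NRF1 core, and CCGGAAG, an ETS core, and matches are in capitals (GRCh38.p14, RefSeq, plus strand, chr2:97645812-97646061 for COX5B and chr5:1801157-1801406 for NDUFS6). CATGCGC is the reverse complement of the NRF1 core.
COX5B: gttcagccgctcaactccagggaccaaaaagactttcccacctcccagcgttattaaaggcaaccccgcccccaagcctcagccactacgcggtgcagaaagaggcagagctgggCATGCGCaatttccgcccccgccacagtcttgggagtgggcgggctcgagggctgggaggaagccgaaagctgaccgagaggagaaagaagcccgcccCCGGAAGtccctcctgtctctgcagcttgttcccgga
NDUFS6: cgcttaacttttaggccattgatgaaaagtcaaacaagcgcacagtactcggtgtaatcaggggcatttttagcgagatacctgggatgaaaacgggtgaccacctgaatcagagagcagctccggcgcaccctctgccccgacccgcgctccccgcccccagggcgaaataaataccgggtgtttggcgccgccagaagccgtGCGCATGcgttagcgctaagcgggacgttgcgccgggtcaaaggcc

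Promoters were found for 73 of the 90 nuclear members. The NRF1 core was in 12 of the 73 (16.4%) and in 1081 of 27305 promoters in all (3.96%), and the ETS core was in 17 of the 73 (23.3%) and in 2407 of 27305 (8.82%). Of the 21 members with a promoter that were higher in KLHL6-KO cells at 0 h, 5 had the NRF1 core (23.8%) and 5 had the ETS core (23.8%). A match says that the letters are present, not that a factor binds there.

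Of the gene lists set beside the members, the largest was that of the mitochondrial ribosome, which translates the 13 mitochondrial mRNAs. Of its 77 tested genes, 15 rose and 5 fell in KLHL6-KO cells at 3 h, 27 rose and 1 fell at 8 h, and 19 rose and 5 fell at 12 h. In WT cells 33 rose and 4 fell at 3 h, 56 rose and 0 fell at 8 h, and 39 rose and 3 fell at 12 h, with medians of 0.11, 0.34 and 0.18. Over all genes about equal shares were higher and lower at each time, 27.1% to 28.0% higher in WT cells and 19.2% to 20.6% in KLHL6-KO cells. At 0 h 29 of the 77 were higher and 1 was lower in KLHL6-KO cells than in WT, beside 13.7% and 12.5% of all genes. Genotype by time called 15 of the 77, all with a negative mean term, beside 12.4% of all genes with a term of either sign.

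The other lists are given at 3, 8 and 12 h against 0 h in that order. Over all genes, 19.2% to 20.6% were higher and 18.6% to 20.0% lower in KLHL6-KO cells, and 27.1% to 28.0% and 25.9% to 28.2% in WT cells. Several of the counts below are near these shares. Of 21 genes of mitochondrial RNA processing and decay, 11 rose and 2 fell, 14 rose and 1 fell, and 10 rose and 1 fell in KLHL6-KO cells, and in WT cells 12 rose and 1 fell, 16 rose and 0 fell, and 16 rose and 0 fell. Of 18 genes of transcription and maintenance of the mitochondrial genome, 7 rose and 4 fell, 9 rose and 2 fell, and 6 rose and 3 fell in KLHL6-KO cells, and 10 rose and 5 fell, 11 rose and 6 fell, and 9 rose and 4 fell in WT cells. Of 53 assembly factors, 12 rose and 6 fell, 12 rose and 4 fell, and 9 rose and 11 fell in KLHL6-KO cells, and 18 rose and 9 fell, 24 rose and 6 fell, and 17 rose and 11 fell in WT cells. Of 19 genes of cytochrome c and quinone synthesis, 4 rose and 4 fell, 4 rose and 4 fell, and 5 rose and 6 fell in KLHL6-KO cells, and 6 rose and 4 fell, 7 rose and 5 fell, and 5 rose and 8 fell in WT cells. Of 10 nuclear regulators of respiration genes, 5 rose and 1 fell, 3 rose and 0 fell, and 3 rose and 3 fell in KLHL6-KO cells, and 6 rose and 1 fell, 6 rose and 1 fell, and 3 rose and 2 fell in WT cells. Between KLHL6-KO and WT cells at 0 h, 7 genes of RNA processing were higher and 0 lower, 6 and 4 of genome maintenance, 11 and 2 of the assembly factors, 5 and 0 of cytochrome c and quinone synthesis, and 3 and 1 of the regulators. Over all genes 13.7% were higher and 12.5% lower at 0 h. Genotype by time called 2, 5, 4, 2 and 1 genes of these 5 lists, all with a negative mean term but 1 of genome maintenance. It called 12.4% of all genes, with terms of either sign, and the share was below that in each of these lists but genome maintenance.

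In both single knockouts MT-ND1 was the mitochondrial member that differed most from WT, and in tumours labelled DKO it was MT-CO1 (0.50 ± 0.16, adjusted p = 0.065), which was not called. MT-ND1 stood at 48843, 37259 and 33582 in tumours labelled KLHL6-KO, against 65086, 54906 and 52569 in WT tumours (-0.54 ± 0.15, adjusted p = 0.018). In tumours labelled NOTCH2-KO it stood at 35049, 38606 and 33233 (-0.69 ± 0.15, adjusted p = 0.0022), and in those labelled DKO at 53865, 43267 and 46432 (-0.27 ± 0.15, 0.25). Neither single knockout overlapped WT, whereas the DKO range reached into it. MT-ND1, a core complex I subunit, lies first of the 13 on its strand, next to the ribosomal RNA genes. Of these, MT-RNR1 was lower in tumours labelled NOTCH2-KO (-0.87 ± 0.12, adjusted p = 9.2e-05), and MT-RNR2 was not called there (-0.31 ± 0.17, 0.2). Neither was called in those labelled KLHL6-KO (-0.22 and -0.20, adjusted p = 0.23 and 0.45) or DKO (-0.37 and 0.21, 0.064 and 0.45). Beside MT-ND1, MT-ND2 was lower in tumours labelled KLHL6-KO, at 35980, 26127 and 28134 against 39272, 38535 and 38893 in WT tumours (-0.38 ± 0.12, adjusted p = 0.036). These 2 made the count there, while 17.5% of all genes were called (8.44% higher and 9.02% lower), and it ran from 0 (without KLHL6-KO replicate 2 or 3, or with the libraries of the compared groups alone) over 1 (without WT replicate 2 or 3) to 4 without WT replicate 1 and 5 without KLHL6-KO replicate 1. MT-ND1 was the 1 member called in tumours labelled NOTCH2-KO, while 30.7% of all genes were (16.2% higher and 14.5% lower); it was called under every alternative, and without WT replicate 1 the count was 2. No mitochondrial member was called in tumours labelled DKO by limma or edgeR, 4 were higher at an unadjusted p under 0.05, 1 was called without WT replicate 2 or 3, and 9.35% of all genes were called (5.50% higher and 3.86% lower).

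The interaction of both knockouts sets the DKO difference from WT against the sum of the single knockout differences from WT. It was above 0 for all 13 mitochondrial members, with the lowest at 0.04 for MT-CO1. Of these, 5 were called, while 10.8% of all genes were (5.53% positive and 5.31% negative). The 5 were MT-ND1 (0.96 ± 0.21, adjusted p = 0.0079), MT-ND4L (0.69 ± 0.21, 0.045), MT-CO2 (0.62 ± 0.18, 0.036), MT-ND2 (0.62, 0.029) and MT-ND3 (0.59, 0.036). The median over the 13 was 0.49. Only MT-ND1 was called under every alternative. The count was 10 without WT replicate 1, 2 without WT replicate 2 or DKO replicate 3, and 1 without KLHL6-KO replicate 2 or 3, any NOTCH2-KO replicate or DKO replicate 1. Of the nuclear members, NDUFV2 was called with a positive interaction (2.11 ± 0.36, adjusted p = 0.0016), and NDUFB5 (-0.65 ± 0.13, 0.0045), UQCRC1 (-0.57, 0.04), NDUFA8 (-0.56, 0.048) and SDHC (-0.54, 0.047) were called with negative ones. That count of 5 was 14 without WT replicate 1, 3 without WT replicate 2 and 2 without any 1 of the other libraries but DKO replicate 2. Mean NDUFV2 was 38.2 in KLHL6-KO, 41.2 in NOTCH2-KO and 51.3 in DKO, against 149 in WT tumours, which also enter the term. Its DKO level was thus close to those of the single knockouts. The ratio of the genomes was 8.87, 6.74 and 7.22 in tumours labelled KLHL6-KO, 7.77, 8.17 and 7.15 in those labelled NOTCH2-KO, 10.4, 8.78 and 11.02 in those labelled DKO and 5.95, 9.61 and 9.89 in WT tumours, and every group overlapped WT.

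Among the nuclear members, NDUFV2, an iron-sulfur core subunit of complex I, was lower in all 3 labelled knockouts. It stood at 35.6, 44.7 and 34.2 in KLHL6-KO, 43.8, 39.9 and 39.999 in NOTCH2-KO and 58.7, 36.3 and 58.9 in DKO, against 215, 96.6 and 134 in WT tumours. The differences were -1.84 ± 0.25 (adjusted p = 0.00022), -1.72 ± 0.25 (0.00015) and -1.45 ± 0.25 (0.0031), called under every alternative. The 3 comparisons share the WT tumours. NDUFV2 was also low elsewhere, at 14.1 to 42.2 normalised counts over all coculture libraries and 27.8 to 65.7 in the mutant tumours. In NOTCH2(WT) tumours it stood at 39.6, 44.1 and 38.6. The WT tumours of the knockout experiment stood above both ranges, and its labelled knockouts lay within the range of the mutant tumours. The experiments were normalised separately. In tumours labelled KLHL6-KO, 2 of the 81 were higher and 2 lower, with NDUFB5 at 1138, 978 and 1008 against 785, 685 and 701 (0.52 ± 0.09, adjusted p = 0.0011), NDUFA8 at 0.54 ± 0.12 (0.0078) and NDUFA4 of complex IV at -0.41 ± 0.13 (0.039). In those labelled NOTCH2-KO, 6 were higher and 2 lower, with UQCRC1 at 1946, 1869 and 2132 against 1437, 1229 and 1155 (0.64 ± 0.12, adjusted p = 0.00089), NDUFA4L2 at 88.5, 108 and 81.7 against 58.99, 59.2 and 57.01 (0.64 ± 0.18, 0.012), NDUFS1 at 0.39 ± 0.08 (0.0022) and ATP5PD at 0.39 ± 0.11 (0.011). In tumours labelled DKO, NDUFV2 was the 1 nuclear member called. Over all genes, 8.44% were higher and 9.02% lower in KLHL6-KO, 16.2% and 14.5% in NOTCH2-KO, and 5.50% and 3.86% in DKO. The nuclear members were thus called less often than all genes in each comparison, in both directions. WT replicate 1 stands apart: without it, the NOTCH2-KO count was 31 (30 higher and 1 lower), the KLHL6-KO count was 10 and the DKO count was 6. Without NOTCH2-KO replicate 1 or 3 the NOTCH2-KO count was 5, and the DKO count was 3 without WT replicate 3 and 2 without DKO replicate 1. Scaling to the total without mitochondrially encoded genes gave 5 higher and 8 lower in NOTCH2-KO and 0 higher and 3 lower in DKO. The 8 stroma markers with a row summed to 506 to 581 in tumours labelled NOTCH2-KO, against 272 to 301 in WT tumours. The 7 B-cell markers summed to 54460 to 65200 there and to 37790 to 47800 in WT tumours, with 5 of 7 called higher, and CD3E was lower (-1.31 ± 0.41, adjusted p = 0.023). The part of these in the differences was not tested. In bulk tumours, fewer cells of a type and less RNA per cell cannot be told apart.

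In the mutant tumours, mitochondrial members were lower with the truncated receptors, most with NOTCH2(Q2140*). R2400* and Q2140* are stop variants, which remove the C-terminal end of NOTCH2, and S2156A changes a serine. NOTCH2 RNA itself stood at 55163 to 63457 normalised counts in Q2140*, 23923 to 29382 in R2400* and 15505 to 17569 in S2156A, against 15237 to 16347 in NOTCH2(WT) tumours. Against NOTCH2(WT), 6 of the 13 were lower in Q2140* tumours, 3 in R2400* and 1 in S2156A, and 0 were higher in each, while 20.5% of all genes were called in Q2140* (9.72% higher and 10.8% lower), 8.04% in R2400* (3.73% and 4.32%) and 15.2% in S2156A (7.14% and 8.06%). No member was higher by edgeR or at an unadjusted p under 0.05. The medians were -0.33, -0.15 and -0.08. MT-ND4, which encodes a proton-pumping subunit of complex I, was lower in all 3. It stood at 160337, 184211 and 169433 in S2156A (-0.30 ± 0.07, adjusted p = 0.016) and at 172521, 142785 and 164513 in R2400* (-0.40 ± 0.07, 0.0053), against 196049, 215536 and 219913 in NOTCH2(WT). In Q2140* it fell by 0.43 (adjusted p = 0.0014). These comparisons share the NOTCH2(WT) tumours. The S2156A call was lost without NOTCH2(WT) replicate 2 (adjusted p = 0.055), with no filter on low values (0.084) or when only these 2 groups were fitted (0.054), and the R2400* count was 1 without NOTCH2(WT) replicate 2 or 3.

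The members called in Q2140* tumours are the 2 pairs of genes shown above as sharing bases and 2 of the 3 complex IV genes. MT-CO3, the complex IV gene that starts on the last base of MT-ATP6, was not called (-0.24 ± 0.09, adjusted p = 0.11). MT-ATP8 stood at 7216, 7206 and 8678 in Q2140*, against 10400, 11188 and 11644 in NOTCH2(WT) (-0.53 ± 0.10, adjusted p = 0.0023), and MT-ATP6 at 61815, 57375 and 73901 against 81036, 88148 and 90310 (-0.43 ± 0.10, 0.013). MT-ND4L stood at 14836, 14517 and 16558 against 19660, 21603 and 22832 (-0.48 ± 0.10, adjusted p = 0.0067), and MT-CO1 at 134060, 136396 and 151776 against 168043, 178146 and 187409 (-0.34 ± 0.08, 0.015). None of these overlapped. MT-CO2 fell by 0.34 (adjusted p = 0.021). By contrast MT-ND6 (-0.01 ± 0.14, adjusted p = 0.98) and MT-ND1 (0.14 ± 0.12, 0.49) did not pass the test and overlapped NOTCH2(WT). Without 1 library the Q2140* count ran from 4 to 8. In R2400*, MT-ND4L (-0.42 ± 0.10, adjusted p = 0.027) and MT-ATP8 (-0.36 ± 0.10, 0.039) were called beside MT-ND4. The ratio of the genomes was 6.33, 5.61 and 6.26 in Q2140*, below all NOTCH2(WT) tumours at 7.12, 8.02 and 7.92 (difference -0.34, pooled SD 0.10). In R2400* it was 7.47, 6.14 and 6.66 and in S2156A 6.98, 7.99 and 7.50, and both overlapped NOTCH2(WT). The stroma markers, all 16 above 0, summed to 557 to 1016 in Q2140* and 447 to 564 in NOTCH2(WT) tumours. The 3 T and NK cell markers with a row summed to 35.6 to 44.98 in Q2140* and 8.47 to 23.3 in NOTCH2(WT) tumours, with CD3E called higher (1.63 ± 0.36, adjusted p = 0.0019). The 7 B-cell markers summed to 75690 to 80770 in Q2140* and 60180 to 62660 in NOTCH2(WT) tumours, with 5 of 7 called higher. MALAT1 was lower in Q2140* (-0.47 ± 0.13, adjusted p = 0.032). The part of these in the ratio was not tested.

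**Figure D5:**
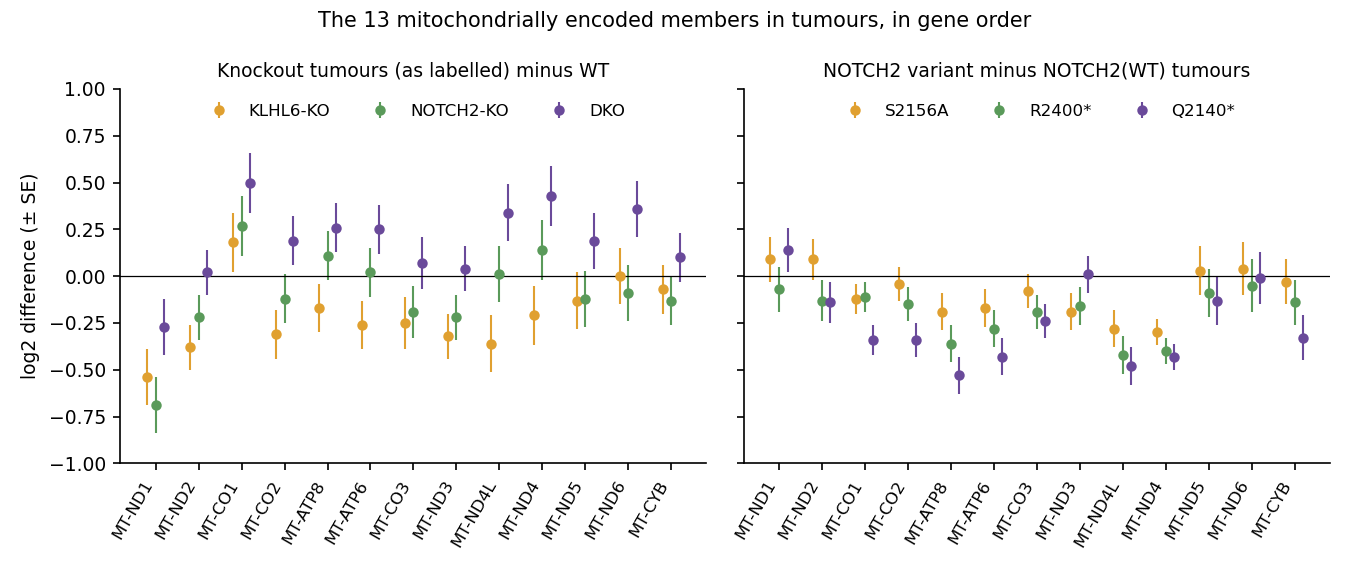
Log2 difference (± SE, 3 tumours against 3) of the 13 mitochondrially encoded members in gene order, in tumours labelled KLHL6-KO, NOTCH2-KO and DKO minus WT (left) and in NOTCH2 variant minus NOTCH2(WT) tumours (right). MT-ND1 lies at -0.54 and -0.69 in the single knockouts, and MT-ATP8, MT-ND4L, MT-ND4 and MT-ATP6 lie at -0.43 to -0.53 in Q2140*.

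Among the nuclear members, 9 of the 81 were higher and 3 lower in Q2140* tumours, with a median of 0.01. Over all genes, 9.72% were higher and 10.8% lower in Q2140*, 3.73% and 4.32% in R2400*, and 7.14% and 8.06% in S2156A. In Q2140* the share of nuclear members called higher was near that of all genes, and the share called lower was below it. In R2400* and S2156A both shares were below those of all genes. NDUFA10, an accessory subunit of complex I, stood at 1143, 1222 and 1123 in Q2140*, against 796, 851 and 771 in NOTCH2(WT) (0.53 ± 0.07, adjusted p = 3.4e-06). NDUFB3 of complex I was at 1063, 1156 and 1217 against 857, 843 and 838 (0.43 ± 0.06, adjusted p = 6.3e-06). In complex V, ATP5F1E was at 3271, 3556 and 4001 against 2732, 2691 and 2961 (0.37 ± 0.06, adjusted p = 8.4e-05) and ATP5MC3 at 5645, 6347 and 6846 against 4906, 4680 and 4960 (0.37 ± 0.06, 2.6e-05). COX7A2L, a factor in the joining of complexes III and IV, was higher by 0.30 ± 0.05 (adjusted p = 0.00018). None of these 5 overlapped. NDUFS5 fell by 0.21 (adjusted p = 0.026) and NDUFA5 by 0.17 (0.033). Without NOTCH2(WT) replicate 1 or 3, or with the libraries of the compared groups alone, 7 members were called, all higher. In R2400* tumours NDUFA10 was higher (966, 856 and 1061 against 796, 851 and 771; 0.25 ± 0.07, adjusted p = 0.021) and COX7A2 lower (-0.23 ± 0.07, 0.026), and 0 or 1 of these calls held without any 1 library. In S2156A tumours 4 were lower and 0 higher, led by ATP5MC2 at 1250, 1206 and 1215 against 1456, 1567 and 1447 (-0.28 ± 0.06, adjusted p = 0.0012). COX7A2 (-0.21 ± 0.07, 0.033) and NDUFA4 (-0.20 ± 0.06, 0.024) of complex IV were lower too, and 1 nuclear member was higher at an unadjusted p under 0.05 and 0 by edgeR. Only 1 of the 4 was called without NOTCH2(WT) replicate 1 or 3 or S2156A replicate 2 or 3, and 24 were called (1 higher and 23 lower) with the libraries of these groups alone.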

How the data were processed

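Per the labels' protocols, all 48 libraries were poly(A)-selected and directional. Reads were processed with STAR, SAMtools and DESeq2 on GRCh38, per the submitters' processing notes. No version, counter, annotation or strand setting of the counting is given in the sources used here. The authors deposited a normalised signal: reads per gene over a size factor of the library. All values were whole multiples of 1 step within 0.02 steps, and these gave the reads. Coculture identifiers (60261 matched, 297 not) and tumour names (12073 and 23297 by current symbol, 651 and 1713 by older symbol, 1285 and 9833 not) were matched to symbols; 17 and 27 tumour rows named as dates or 0 were left out (at most 0.252% of reads).

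Genes that reached 10 in 3 or more libraries were tested (15032 in coculture, 14005 and 15354 in tumours) with limma 3.58.1 (trend, robust) in R 4.3.3, all groups of an experiment in 1 fit, and edgeR 4.0.16 on the recovered reads as an alternative. Other scaling, pseudocount, filter, sample sets, a replicate block and leaving out each library were tried. Functions were tested on simulated data. UQCRHL, a retrocopy of UQCRH, and the readthrough genes NDUFC2-KCTD14 and ATP5MF-PTCD1 share sequence with other members, and their counts are uncertain. Named genes were up to 3 called members of each genome in each direction, the called nuclear member with the smallest p in each complex, and fixed mitochondrial members and isoforms. Members and gene lists were chosen with earlier results of these data known.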

Additional observations from a re-analysis of the deposited data

Results flagged for a closer look

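Differences between genotypes in their change over time, and between single and double knockouts, were flagged by the test of the difference itself. Genotype by time called 12 of 81 nuclear members, beside 12.4% of all genes. The interaction called 5 of 13 mitochondrial and 5 of 81 nuclear members, beside 10.8% of all genes. The nuclear counts lie near or below these shares. In coculture, genotype by time called 12 nuclear members, with mean terms (KLHL6-KO minus WT, change against 0 h) of -0.35 for COX5B, -0.31 for NDUFA6, -0.27 for NDUFB9, -0.26 for ATP5MC1, -0.25 for NDUFS6, -0.24 for UQCRQ, -0.23 for NDUFAB1, -0.22 for ATP5MF, -0.20 for ATP5MC3, -0.20 for UQCRFS1, -0.19 for NDUFA11 and -0.17 for NDUFA12. In the knockout tumours, the interaction of KLHL6 and NOTCH2 called 5 mitochondrial members, MT-ND1 (0.96), MT-ND4L (0.69), MT-CO2 (0.62), MT-ND2 (0.62) and MT-ND3 (0.59). It also called 5 nuclear members, NDUFV2 (2.11), NDUFB5 (-0.65), UQCRC1 (-0.57), NDUFA8 (-0.56) and SDHC (-0.54). In these tumours KLHL6 RNA was higher in those labelled KLHL6-KO than in WT, while NOTCH2 RNA was lower in those labelled NOTCH2-KO.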

How the results depend on the processing

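No call changed direction. Over 243 called pairs of a member and a comparison, 2493 alternative values stayed called and 677 did not. No count moved by over 1.5 times with edgeR or a pseudocount of 8. Scaled to the total without mitochondrially encoded genes, nuclear calls were 12 in KLHL6-KO and 17 in WT cells at 3 h, 15 in KLHL6-KO against WT at 0 h, 5 for genotype by time, 13 in NOTCH2-KO and 3 in DKO tumours, and mitochondrial calls at 8 h were 1 in KLHL6-KO and 2 in WT cells. With no filter, nuclear calls were 1 and 11 in KLHL6-KO cells at 3 and 8 h, 6 in WT cells at 3 h, and 17 and 0 in KLHL6-KO against WT at 0 and 8 h; mitochondrial calls were 1 and 4 in KLHL6-KO cells at 8 and 12 h, 2 in WT cells at 8 h, 0 in S2156A and 1 in R2400*. With the libraries of the compared groups alone, mitochondrial calls were 6 and 11 in KLHL6-KO cells at 3 and 8 h, 7, 7 and 1 in WT cells at 3, 8 and 12 h, 5 in KLHL6-KO against WT at 0 h, 0 in KLHL6-KO tumours and 2 in S2156A; nuclear calls were 9 and 27 in KLHL6-KO cells at 3 and 12 h, 16, 17 and 0 in KLHL6-KO against WT at 0, 3 and 8 h, 24 in S2156A and 7 in Q2140*. As the mean of log2 over members, the ratio differed by 0.07 in KLHL6-KO (main -0.07) and 0.29 in WT cells (main 0.07) at 3 h and by 0.03 in KLHL6-KO against WT at 0 h (main -0.09). Same-numbered libraries showed little correlation, with a median of 0.06 in coculture and -0.01 in both tumour experiments. In coculture it reached 0.21, and libraries of other numbers had a median of -0.02. These values cannot exclude a pairing by replicate number. With the numbers as a replicate block, nuclear calls were 7 and 26 in KLHL6-KO cells at 3 and 12 h (main 3 and 17). They were 12 and 4 in KLHL6-KO against WT at 3 and 8 h (main 3 and 1) and 25 for genotype by time (main 12). Mitochondrial calls were 2 in WT cells at 8 h (main 4). Leaving out each library in turn, mitochondrial calls ran from 1 to 1 and 1 to 11 in KLHL6-KO cells at 8 and 12 h, 1 to 4 and 6 to 13 in WT cells at 8 and 12 h, 0 to 5 in KLHL6-KO, 1 to 2 in NOTCH2-KO and 0 to 1 in DKO tumours, 1 to 10 for the interaction, 0 to 1 in S2156A and 1 to 3 in R2400*. Nuclear calls ran from 1 to 3, 9 to 15 and 11 to 17 in KLHL6-KO cells at 3, 8 and 12 h, 6 to 16 in WT cells at 3 h, 10 to 43, 0 to 4 and 0 to 4 in KLHL6-KO against WT at 0, 3 and 8 h, 4 to 30 for genotype by time, 3 to 10 in KLHL6-KO, 5 to 31 in NOTCH2-KO and 1 to 6 in DKO tumours, 2 to 14 for the interaction, 1 to 4 in S2156A, 0 to 1 in R2400* and 7 to 17 in Q2140*. The cause of these shifts was not tested. With 3 libraries a group, mitochondrial members vary more between libraries than nuclear ones, and NDUFV2, NDUFA7 and NDUFA4L2 rest on few reads.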
